A study of Mus musculus with 8 samples.

Results

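The genes described here make and load the peptide cargo of major histocompatibility complex (MHC) class I. They are 10 symbols, B2m, H2-K1, H2-D1, Tap1, Tap2, Tapbp, Psmb8, Psmb9, Psmb10 and Nlrc5, taken by name from the 35963 gene symbols of the deposited transcript table, and all 10 passed the filter on low counts. RNA came from epithelial cells of the proximal colon, released from the tissue with a buffer, and the mice were 4 weeks old. Libraries called Ccna2-KO (4) were labelled Ccna2-/- and came from Ccna2 fl/fl vil-Cre mice, in which the villin promoter drives Cre recombinase in intestinal epithelium. The 4 control libraries were labelled wild type and came from Ccna2 fl/fl mice, so both groups carried the floxed alleles and the controls had no Cre. The sources used here do not name the mouse strain. Cyclin A2, the product of Ccna2, binds kinases that drive S phase and entry into mitosis, and the comparison asks how the expression of this pathway differs when Ccna2 is targeted in the epithelium.

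Almost every nucleated cell displays peptides from its own proteins on MHC class I, where CD8 T cells inspect them. Proteasomes cut proteins to peptides, the TAP transporter pumps these into the endoplasmic reticulum, and tapasin holds an empty heavy chain with beta-2 microglobulin beside TAP until a peptide binds. Interferon gamma raises the whole pathway, replaces the catalytic proteasome subunits by those of the immunoproteasome, and induces NLRC5, which activates class I promoters. The intestinal epithelium keeps many CD8 T cells between its own cells.

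Libraries held between 27162083 and 34386731 estimated counts. Ccna2 itself did not separate the groups, with 16.2 to 26.6 CPM (counts scaled to library size, with TMM factors) in Ccna2-KO libraries and 11.9 to 54.3 CPM in controls, and counts per transcript cannot show the loss of single exons, so groups are named by their labels. Among 15893 tested genes, 1924 (12.1%) had an adjusted p under 0.05, with 6.40% higher and 5.71% lower in Ccna2-KO libraries. All adjusted p-values are from edgeR's quasi-likelihood test with Benjamini-Hochberg adjustment over these genes, and exact p-values are from two-sided permutation tests of log2 CPM, whose smallest possible value with 4 libraries against 4 is 0.0286. The label numbers form a low set (595 to 598, control replicates 2, 3 and 4 and Ccna2-KO replicate 4) and a high set (621 to 641, control replicate 1 and the other Ccna2-KO libraries), which overlaps with genotype, and the sources used here do not say what the numbers stand for. Because no label states that every library is a different mouse, the spread behind the p-values may in part be technical.

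Psmb8 and Psmb10, which encode catalytic subunits of the immunoproteasome, fell in Ccna2-KO libraries by 1.30 and 0.67 on the log2 scale. The other 8 genes did not pass the test, among them B2m with a log2 fold change of -0.76 and H2-D1 with 0.09. The share of genes that passed as lower, 2 of 10, stands beside 5.71% of all genes tested. The log2 fold change (Ccna2-KO over control) was below 0 in 9 of 10 genes, against 51.9% of all genes tested, and its median was -0.68, against -0.01 over all genes. At an unadjusted p under 0.05, 5 of the 10 were lower and 0 higher in edgeR, against 13.5% of all genes lower. DESeq2 called 3 lower and 0 higher, and limma voom 1 lower and 0 higher. The 2 groups did not overlap for B2m and Psmb8, both lower in Ccna2-KO libraries, whereas groups were apart in this direction for 9.60% of all genes and in either direction for 19.0%. The calls depended on single libraries: 0 of the 10 genes passed without any 1 of the Ccna2-KO libraries or without control replicate 3, 1 without control replicate 2, 3 without control replicate 4 and 4 without control replicate 1. With a term for the label number set, Psmb10 alone passed. Markers of T cells fell in the same comparison (13 of 13 tested), and the 14 listed genes summed to 13.7 to 27.1 CPM in Ccna2-KO libraries and 44.5 to 196 CPM in controls. In such bulk RNA, fewer cells of a type and less RNA per cell cannot be told apart, and the part of leukocyte RNA in the class I pathway values was not tested.

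**Figure D1:**
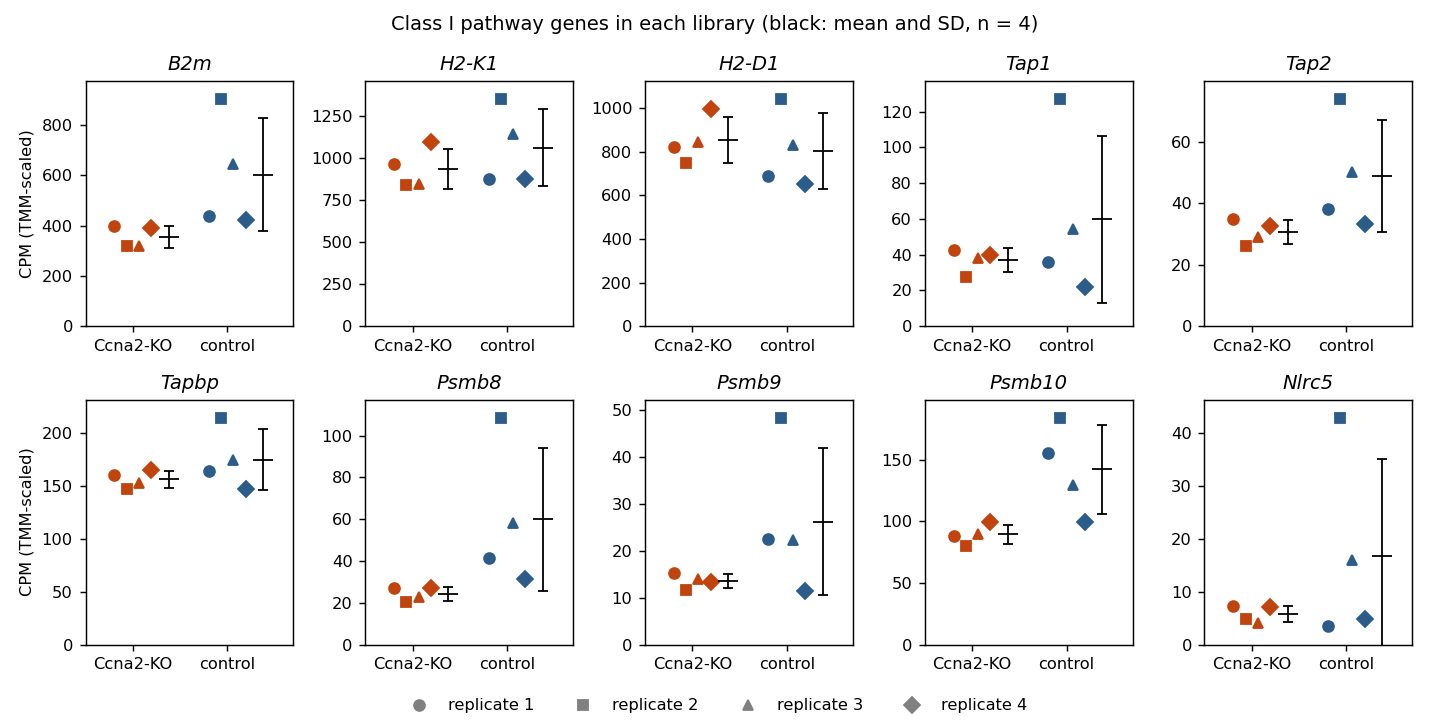
Expression of the 10 class I pathway genes in CPM in each Ccna2-KO library (left of each panel) and each control library (right), with the mean and SD of 4 libraries in black; the lower SD bar of Nlrc5 in controls ends below 0 and is not drawn to its end. Ccna2-KO points lie close together, control replicate 2 is the highest library in all 10 panels, and only B2m and Psmb8 show no overlap.

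B2m encodes beta-2 microglobulin, the light chain shared by all class I molecules. Its level was 398.0, 319.0, 318.0 and 389.9 CPM in the Ccna2-KO libraries 1 to 4, against 439.8, 903.7, 647.0 and 420.9 CPM in control libraries 1 to 4. Every Ccna2-KO library lay below every control, which fixes the same order within each number set. Values were 389.9 against 420.9 CPM and above in the low set and up to 398.0 against 439.8 CPM in the high set. With the term for the label number set the log2 fold change was -0.55 and did not pass (adjusted p = 0.164). Means were 356 ± 43.7 CPM in Ccna2-KO libraries and 603 ± 225 CPM in controls (SD, n = 4 each). The log2 fold change was -0.76 ± 0.24 (SE), which did not pass (adjusted p = 0.0702; exact p = 0.0286). B2m passed with DESeq2 (adjusted p = 0.0207) and without control replicate 1 (adjusted p = 0.0175), and over all alternatives its change ranged from -0.90 to -0.50.

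The heavy chains H2-K1 and H2-D1, which form the peptide groove of the classical class I molecules of the mouse, did not separate the groups. H2-K1 had 962.4, 837.6, 846.1 and 1097 CPM in Ccna2-KO libraries, against 877.0, 1352, 1147 and 876.7 CPM in controls. Control replicates 2 and 3 were above all Ccna2-KO libraries and control replicates 1 and 4 among them (log2 fold change -0.18 ± 0.17, adjusted p = 0.552). H2-D1 had 823.7, 749.1, 847.5 and 998.1 CPM in Ccna2-KO libraries, against 687.8, 1043, 832.6 and 654.5 CPM in controls. It was the only one of the 10 genes with a positive change (0.09 ± 0.17, adjusted p = 0.799), and that change was 0.00 without control replicate 4.

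The chains stood in different proportions in the 2 groups. The ratio of B2m to H2-D1 counts was 0.483, 0.426, 0.375 and 0.391 in Ccna2-KO libraries, against 0.639, 0.867, 0.777 and 0.643 in controls. The ratio of H2-K1 to H2-D1 counts was 1.17, 1.12, 0.998 and 1.10 in Ccna2-KO libraries, against 1.28, 1.30, 1.38 and 1.34 in controls. Neither ratio overlapped between the groups, and both are given as descriptions without a test. Groups were apart for 19.0% of all single genes tested, and no such share was computed for pairs of genes. Reads that fit several of the closely related H2 transcripts are shared between them by the estimate, and H2 genes differ between mouse strains, so single heavy chains are less certain than B2m. H2-K1 was summed over 12 transcripts, of which 1 held 84.5% of its counts, and H2-D1 and B2m had 1 transcript each.

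Promoter sequence was read for 8 of the 10 genes from RefSeq windows on GRCm38.p6 that hold 250 bases before and 50 after the annotated start, and Tap2 and Nlrc5 had no entry. The windows of B2m (chr2:122147437-122147736, plus strand), H2-K1 (chr17:34000298-34000597, minus strand) and H2-D1 (chr17:35262844-35263143, plus strand) are shown because the promoters of these chains are the textbook targets of NLRC5 and interferon. Capitals mark TGACG (the core of the cAMP response element), CCAAT, the core of the interferon-stimulated response element (GAAA repeated after 2 bases, GAAACTGAAA in B2m), GGGGATTCCCC (enhancer A of class I genes) and AGTTTCACTTCT (the interferon consensus of H2 genes), each searched on both strands. The letters of enhancer A and of the interferon consensus were read from the H2-D1 window.
B2m: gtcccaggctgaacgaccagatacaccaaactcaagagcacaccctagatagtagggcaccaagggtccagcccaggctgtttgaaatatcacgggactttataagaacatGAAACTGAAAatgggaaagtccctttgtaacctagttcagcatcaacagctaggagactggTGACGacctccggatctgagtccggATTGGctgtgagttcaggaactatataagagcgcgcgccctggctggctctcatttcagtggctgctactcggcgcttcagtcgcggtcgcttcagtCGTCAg
H2-K1: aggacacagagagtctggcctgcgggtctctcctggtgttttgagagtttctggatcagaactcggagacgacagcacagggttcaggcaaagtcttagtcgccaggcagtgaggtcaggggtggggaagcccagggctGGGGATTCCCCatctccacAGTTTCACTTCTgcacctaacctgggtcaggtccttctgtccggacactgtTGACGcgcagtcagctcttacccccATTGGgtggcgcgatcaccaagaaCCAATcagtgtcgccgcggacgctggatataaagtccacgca
H2-D1: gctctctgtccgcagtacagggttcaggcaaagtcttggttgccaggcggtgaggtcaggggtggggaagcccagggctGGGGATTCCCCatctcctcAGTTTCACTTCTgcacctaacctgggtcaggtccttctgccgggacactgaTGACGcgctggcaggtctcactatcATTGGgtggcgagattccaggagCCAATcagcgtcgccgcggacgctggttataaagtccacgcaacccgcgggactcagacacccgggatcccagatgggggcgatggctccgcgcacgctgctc

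In all 3 windows TGACG is followed after 20 bases by ATTGG, the reverse complement of CCAAT. This spacing, searched after the windows had been read, was present in 31 of 32851 promoter windows (0.0944%), which belong to 27 genes. Only 4 of these genes are B2m or H2 genes, namely the 3 shown and H2-M3, a class I chain that presents formylated peptides. The others, such as Calu, Hnrnpf and Per1, are in none of the gene lists used here. TGACG alone is in 20.8% of windows and CCAAT in 37.4%. H2-K1 and H2-D1 share enhancer A and the interferon consensus, also searched afterwards and present in 0.0304% and 0.0335% of windows, and their longest identical run is 47 bases. B2m has a match to the response element core, from base 139 to base 130 before the start, and 3.44% of windows hold one. The windows of H2-K1 and H2-D1 have no match to that core, and their interferon consensus was searched with other letters. These searches do not tell whether the elements differ in kind. Among the class I genes with this spacing, B2m and H2-M3 had log2 fold changes of -0.76 and -0.63 and the heavy chains of -0.18 and 0.09, and none of the 4 passed. A match of letters does not show that a factor binds there.

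Peptide transport and loading genes were lower on average without passing the test. Tap1 and Tap2 encode the paired chains of the TAP transporter. Tap2 had 34.9, 26.1, 29.1 and 32.5 CPM in Ccna2-KO libraries, against 38.1, 73.9, 50.1 and 33.1 CPM in controls. The groups met where Ccna2-KO replicate 1 exceeded control replicate 4 (log2 fold change -0.67 ± 0.23, adjusted p = 0.0984, exact p = 0.0571), and the gene passed without control replicate 1 (-0.77, adjusted p = 0.0408). Tap1 had 42.5, 27.3, 38.1 and 39.8 CPM in Ccna2-KO libraries, against 35.8, 126.9, 54.4 and 21.6 CPM in controls. Control replicates 1 and 4 lay within or below the Ccna2-KO range, and the change of -0.69 ± 0.46 (adjusted p = 0.386) was -0.02 without control replicate 2. Tapbp, which encodes tapasin, had 147 to 166 CPM in Ccna2-KO libraries, against 147 to 215 CPM in controls (-0.16 ± 0.13, adjusted p = 0.469).

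The immunoproteasome subunits Psmb8, Psmb9 and Psmb10 encode LMP7, LMP2 and MECL-1, which replace the standard catalytic subunits encoded by Psmb5, Psmb6 and Psmb7. Psmb8 had 27.2, 20.4, 22.8 and 26.9 CPM in Ccna2-KO libraries, against 41.6, 108.6, 58.1 and 31.3 CPM in controls. All Ccna2-KO libraries were below all controls, which fixes the same order within each number set. Values were 20.4 to 27.2 against 41.6 CPM in the high set and 26.9 against 31.3 to 108.6 CPM in the low set. Means were 24.3 ± 3.30 CPM in Ccna2-KO libraries and 59.9 ± 34.3 CPM in controls (SD, n = 4 each). Its fall of 1.30 on the log2 scale had an SE of 0.34 (adjusted p = 0.0370, exact p = 0.0286). It did not pass with limma voom (adjusted p = 0.0560), without the filter on low counts (adjusted p = 0.0576), with the set term (adjusted p = 0.123), with the replicate block (adjusted p = 0.109), among single transcripts (adjusted p = 0.188) and without any 1 of the Ccna2-KO libraries or control replicate 3 (adjusted p up to 0.109). Without control replicate 2 the change was -0.85 (adjusted p = 0.0453).

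Psmb10 had 88.2, 79.9, 89.4 and 99.5 CPM in Ccna2-KO libraries, against 155.3, 184.0, 129.6 and 99.0 CPM in controls. Ccna2-KO replicate 4 and control replicate 4, both of the low number set, were within 1 CPM of each other, and all other control values exceeded all Ccna2-KO values. Means were 89.3 ± 8.02 CPM in Ccna2-KO libraries and 142 ± 36.3 CPM in controls (SD, n = 4 each). The fall of 0.67 on the log2 scale had an SE of 0.18 (adjusted p = 0.0391, exact p = 0.0571). The set term left a log2 fold change of -0.66 that passed (adjusted p = 0.0444). Psmb10 did not pass with the replicate block (adjusted p = 0.122), as a single transcript (adjusted p = 0.177) or without any 1 of the Ccna2-KO libraries, control replicate 2 or control replicate 3 (adjusted p up to 0.118). Its principal transcript held 96.3% of the counts.

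Psmb9 had 15.3, 11.5, 13.9 and 13.3 CPM in Ccna2-KO libraries, against 22.5, 48.4, 22.4 and 11.5 CPM in controls. Control replicate 4 lay at the lowest Ccna2-KO value and the other controls above all Ccna2-KO libraries, and the change of -0.95 ± 0.36 did not pass (adjusted p = 0.127), except without control replicate 4 (-1.20, adjusted p = 0.0383). Psmb9 and Tap1 lie head to head, and their promoter windows on opposite strands of chromosome 17 share 275 bases. The window of Tap1 (chr17:34187306-34187605, plus strand) is shown because it holds most of both, with CCAAT and TGACG in capitals, and that of Psmb8 (chr17:34197945-34198244, plus strand) because Psmb8 had the larger of the changes that passed.
Tap1: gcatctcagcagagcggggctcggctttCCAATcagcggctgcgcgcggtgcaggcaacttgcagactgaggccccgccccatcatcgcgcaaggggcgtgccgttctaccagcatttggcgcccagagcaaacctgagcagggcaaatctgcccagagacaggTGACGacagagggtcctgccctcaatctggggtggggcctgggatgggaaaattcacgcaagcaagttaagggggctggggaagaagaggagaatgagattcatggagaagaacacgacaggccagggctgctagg
Psmb8: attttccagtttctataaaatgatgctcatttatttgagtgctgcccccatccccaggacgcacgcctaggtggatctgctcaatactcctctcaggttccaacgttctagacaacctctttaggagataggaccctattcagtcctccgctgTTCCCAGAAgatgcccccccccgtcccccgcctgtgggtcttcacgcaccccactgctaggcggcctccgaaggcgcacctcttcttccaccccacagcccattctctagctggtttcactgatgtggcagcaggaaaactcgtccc
Capitals in the Psmb8 window mark a gamma-activated site (TTCNNNGAA, both strands), from base 97 to base 89 before the start. Such a site is in 8.30% of all windows, and of the 8 genes with a window 1 had it. The window of Psmb10, the other gene that passed, held none of the patterns searched. The 20-base spacing of TGACG and ATTGG was in none of the windows of Tap1, Tapbp, Psmb8, Psmb9 and Psmb10.

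For the standard catalytic subunits no change passed the test. Psmb5, Psmb6 and Psmb7 had log2 fold changes of 0.25 ± 0.14, 0.06 ± 0.17 and 0.16 ± 0.16, and none passed (adjusted p = 0.297, 0.866 and 0.587). Of 14 genes of the standard 20S core, 0 passed with edgeR, DESeq2 or limma voom and 0 had an unadjusted p under 0.05 in edgeR. Their median was 0.08. Without control replicate 1, 7 of the 14 rose and 0 fell. Among the 7 were Psmb5, Psmb6 and Psmb7, with log2 fold changes of 0.39, 0.27 and 0.36 (adjusted p = 0.00864, 0.0373 and 0.0118). The 14 genes summed to 1173 to 1361 CPM in Ccna2-KO libraries, against 1617 CPM in control replicate 1 and 1046 to 1123 CPM in control replicates 2, 3 and 4.

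Ratios within a library compare each pair of subunits. The ratio of Psmb8 to Psmb5 counts was 0.439, 0.302, 0.333 and 0.429 in Ccna2-KO libraries, against 0.589, 2.33, 1.23 and 0.567 in controls. The ratio of Psmb10 to Psmb7 was 0.985, 0.809, 0.904 and 1.16 in Ccna2-KO libraries, against 1.35, 2.45, 1.90 and 1.31 in controls. Neither overlapped between groups, and no share over other pairs of genes was computed. The ratio of Psmb9 to Psmb6 was 0.254, 0.164, 0.191 and 0.197 in Ccna2-KO libraries, against 0.246, 0.816, 0.411 and 0.207 in controls, and it did overlap. The ratios show unequal change of the pair and not which partner moved.

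**Figure D2:**
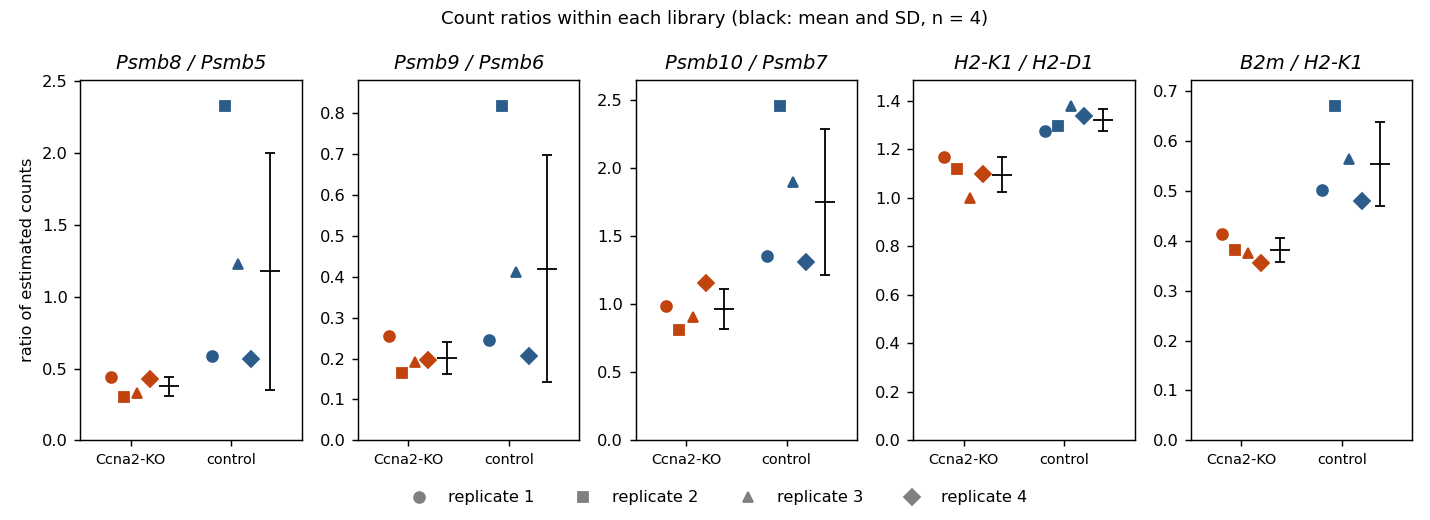
Ratios of estimated counts within each library for 3 pairs of immunoproteasome and standard subunits, for both heavy chains and for B2m over H2-K1, with Ccna2-KO libraries left and controls right and the mean and SD of 4 libraries in black. The groups are apart for every pair drawn except Psmb9 over Psmb6.

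Nlrc5, the transactivator of class I genes, was the least abundant and the most variable of the genes. It had 7.21, 4.80, 4.15 and 7.06 CPM in Ccna2-KO libraries, against 3.45, 43.0, 16.1 and 4.85 CPM in controls. Control replicates 2 and 3 stood above the other 6 libraries, which overlapped. The log2 fold change was -1.53 ± 0.70 (adjusted p = 0.199, exact p = 0.371), and it was -0.49 without control replicate 2 and -0.53 with the set term. Counts were 133 to 214 per Ccna2-KO library and 99 to 1077 per control, divided over 6 transcripts of which the largest held 24.7%.

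Per kilobase of the most abundant curated (NM) transcript with a GENCODE match, which allows levels of different genes to be compared, the order of mean levels in Ccna2-KO libraries was H2-K1 (578), B2m (414), H2-D1 (407), Psmb10 (68.1), Tapbp (60.5), Psmb8 (14.9), Tap1 (12.5), Psmb9 (10.0), Tap2 (8.90) and Nlrc5 (0.836 CPM per kilobase). In controls B2m came first with 701 CPM per kilobase, then H2-K1 with 657 and H2-D1 with 383, and Psmb8 stood at 36.8. The ranges over all 8 libraries of neighbours in the Ccna2-KO order overlapped, except those of H2-D1 (311 to 496) and Psmb10 (60.9 to 140.3) and of Tap2 (7.59 to 21.5) and Nlrc5 (0.497 to 6.19). Psmb5, Psmb6 and Psmb7 had 72.5, 85.1 and 80.4 CPM per kilobase in Ccna2-KO libraries and 61.1, 81.6 and 71.9 in controls. Lengths are from GENCODE on the same build, and that of Nlrc5 belongs to a transcript that is not its most abundant, so its level per kilobase is less certain. On chromosome 17, 7 of the 10 genes lie between positions 33915899 and 35267499 (GRCm38), in the mouse MHC. Psmb9, Tap1, Psmb8 and Tap2 follow each other there between positions 34182030 and 34216321 with log2 fold changes of -0.95, -0.69, -1.30 and -0.67. B2m is on chromosome 2 (122147687 to 122153082), and Psmb10 (105935728 to 105938392) and Nlrc5 (94434335 to 94527272) are on chromosome 8.

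The spread within groups differed as well. The SD of log2 CPM was wider among controls than among Ccna2-KO libraries for all 10 genes, as for 73.9% of all genes tested. It was 0.20 and 0.77 for Psmb8 in Ccna2-KO and control libraries, 0.18 and 0.52 for B2m, and 0.40 and 1.65 for Nlrc5. Control replicate 2 had the highest level of 8 libraries for all 10 genes, and control replicate 4 the lowest among controls for 9 of them. The mean of the 10 genes on the log2 scale, centred over 8 libraries, was -0.14, -0.47, -0.35 and -0.11 in Ccna2-KO libraries, against -0.08, 1.10, 0.40 and -0.35 in controls, so control replicate 4 lay within the Ccna2-KO range and control replicate 1 just above it. H2-D1 followed the other 9 genes least (Pearson r = 0.60 with their mean over the 8 libraries, which share their groups), and Tap2 and Tapbp most (r = 0.98 each).

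Other class I chains included genes with larger changes. Of 26 listed, 22 were in the table and 17 were tested, of which 4 fell and 1 rose, with a median of -0.63. H2-T3, the thymus leukaemia antigen that binds CD8 alpha chains of intraepithelial lymphocytes, had 2.83, 3.12, 2.75 and 2.43 CPM in Ccna2-KO libraries, against 6.20, 14.6, 11.4 and 7.57 CPM in controls. It fell by 1.84 on the log2 scale (SE 0.27, adjusted p = 0.00370). H2-T10, a ligand of some gamma delta T cells, fell by 1.54 (SE 0.26, adjusted p = 0.00651), and H2-Bl by 1.46 (SE 0.28, adjusted p = 0.0114). None of the 3 overlapped between groups, and all 3 passed under every alternative tried. Fcgrt, the neonatal Fc receptor chain, was the remaining gene that fell (0.64 on the log2 scale, SE 0.15, adjusted p = 0.0235), and it is named here after its values were seen. Hfe, which regulates iron uptake, rose by 0.84 ± 0.20 (adjusted p = 0.0266), a call that was lost with the replicate block and in 6 of 8 fits without 1 library (adjusted p up to 0.0830). H2-T23, which encodes Qa-1, and H2-Q7, which encodes Qa-2, had changes of -0.71 ± 0.23 and -1.34 ± 0.41 that did not pass (adjusted p = 0.0808 and 0.0661). H2-Q10, also named after its values were seen, had a change of 1.05 ± 0.32 that did not pass either (adjusted p = 0.0635). The change was below 0 in 13 of the 17 tested. With single libraries left out, between 3 (without Ccna2-KO replicate 2 or control replicate 3) and 8 (without control replicate 1) of this list fell and 0 to 2 rose.

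Of 14 genes that supply or edit peptides upstream of TAP and beside it, 1 rose and 0 fell, with a median of 0.05, and 2 were lower and 2 higher at an unadjusted p under 0.05 in edgeR. DESeq2 and limma voom each called 1 higher and 0 lower, and with the set term 2 were higher and 1 lower. The gene that rose was Thop1, a cytosolic peptidase that can destroy peptides, with 60.9 to 87.6 CPM in Ccna2-KO libraries, against 25.7 to 45.6 CPM in controls (1.07 ± 0.19, adjusted p = 0.00802). Erap1, the aminopeptidase that trims peptides in the endoplasmic reticulum, had 52.2 to 62.8 CPM in Ccna2-KO libraries and 63.7 to 80.2 CPM in controls, and its change of -0.23 ± 0.11 did not pass (adjusted p = 0.192). Psme1 and Psme2, the chains of the proteasome activator PA28, had changes of -0.33 ± 0.13 and -0.18 ± 0.11, and Tapbpl, a tapasin relative, of -0.50 ± 0.21. The chaperones Calr and Pdia3 had 0.16 ± 0.13 and 0.13 ± 0.19. None of these 5 passed (adjusted p = 0.129, 0.359, 0.163, 0.476 and 0.715), except Psme1 with the set term (-0.42, adjusted p = 0.0409).

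**Figure D3:**
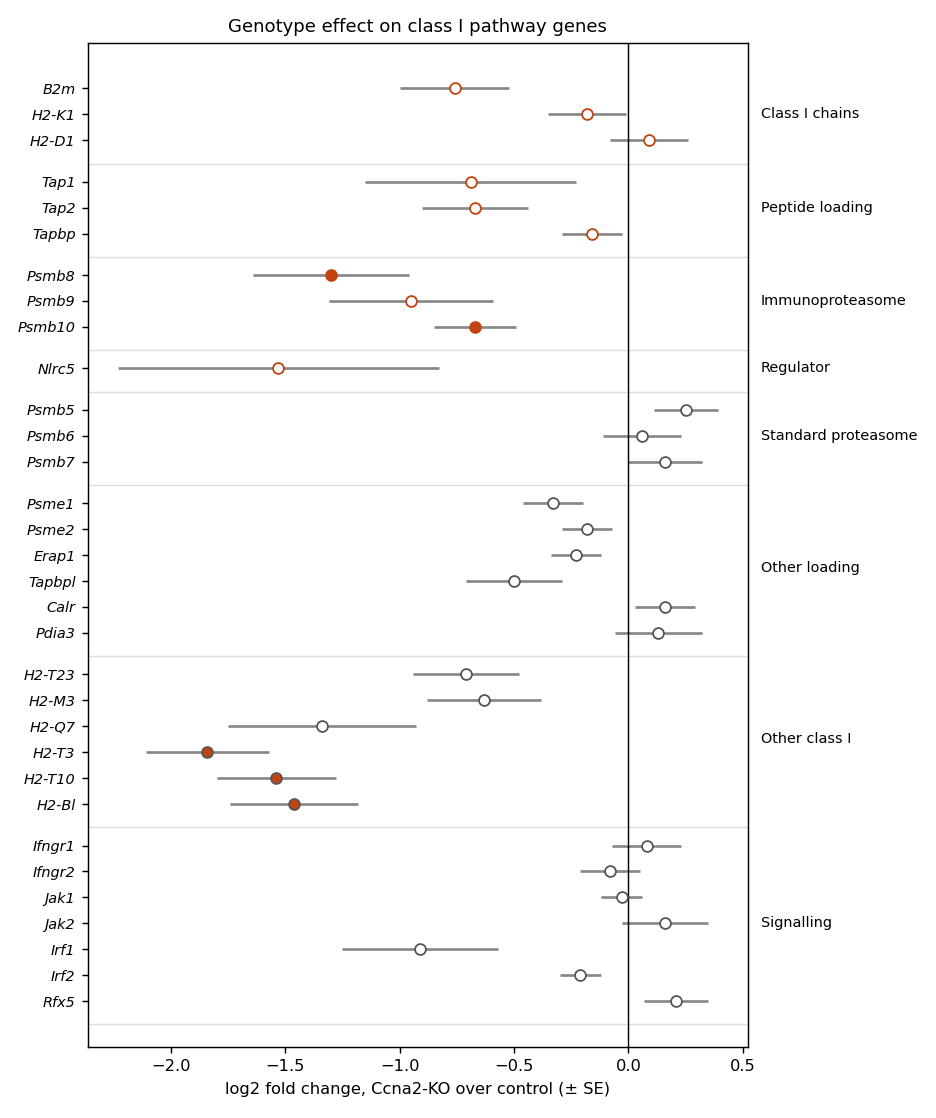
Log2 fold change of Ccna2-KO over control libraries with its SE, from edgeR over 8 libraries, for the 10 class I pathway genes (red outlines) and related genes (grey outlines), with filled points for adjusted p under 0.05. Filled points are Psmb8, Psmb10, H2-T3, H2-T10 and H2-Bl, and the standard proteasome subunits and the receptor genes lie near 0.

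Interferon gamma signalling genes did not pass the test. Of 13 tested, 0 passed with edgeR, 2 were lower at an unadjusted p under 0.05, DESeq2 called 1 lower and limma voom 0, and the median was -0.08. Without control replicate 1, 3 of them fell, and with the set term 1 rose. Ifng had 0 to 4 counts per Ccna2-KO library and 4 to 8 per control and was not tested. The receptor genes Ifngr1 and Ifngr2 had changes of 0.08 ± 0.15 and -0.08 ± 0.13, and the kinase genes Jak1 and Jak2 of -0.03 ± 0.09 and 0.16 ± 0.19. Irf1, which acts on class I and immunoproteasome promoters, had 166.2, 87.8, 191.9 and 261.1 CPM in Ccna2-KO libraries, against 187.8, 459.5, 352.7 and 331.7 CPM in controls. Its groups met at control replicate 1, and its change of -0.91 ± 0.34 did not pass (adjusted p = 0.119). Irf1 was the gene called by DESeq2 (adjusted p = 0.0478), and it passed without control replicate 1 (-1.11, adjusted p = 0.033). With the set term its change was -0.44 (adjusted p = 0.279). Irf2, Rfx5 and the other signalling and promoter factor genes had log2 fold changes between -0.42 and 0.26, apart from Irf1 and Ciita.

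Ciita, the class II counterpart of Nlrc5, fell by 3.73 on the log2 scale (SE 0.79, adjusted p = 0.0160). It had 0.600 to 1.65 CPM in Ccna2-KO libraries, against 3.24 to 36.2 CPM in controls, and it did not pass with the set term (adjusted p = 0.104) or without Ccna2-KO replicate 2 or 3 (adjusted p up to 0.0554). It was 1 of 11 promoter factor genes tested, of which 0 rose and 1 fell. All 6 class II genes of the list fell (4 with limma voom, 2 with the set term and 4 to 6 with single libraries left out), among them Cd74, which encodes the invariant chain, with 4.71 to 12.0 CPM in Ccna2-KO libraries and 61.2 to 867 CPM in controls. H2-DMb1, which encodes a chain of the peptide editor H2-DM, fell by 5.02 on the log2 scale, and the class II chain genes H2-Aa and H2-Eb1 by 4.31 and 3.88. The chain genes H2-Aa and H2-Eb1 did not pass without the filter on low counts, with limma voom or with the set term (adjusted p up to 0.117). The 6 genes summed to 15.6 to 33.5 CPM in Ccna2-KO libraries and 107 to 1421 CPM in controls.

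Of 26 interferon-induced genes tested, 4 fell and 0 rose, with a median of 0.06, and 4 were higher at an unadjusted p under 0.05 in edgeR, while DESeq2 called 5 lower and 2 higher, limma voom 2 lower and 3 higher, and the fit with the replicate block 1 lower and 0 higher. Those that fell were GTPases of cell-autonomous defence, namely Iigp1 (by 3.89 on the log2 scale, SE 0.93, adjusted p = 0.0266), Tgtp1 (by 3.02, SE 0.65, adjusted p = 0.0174), Gbp9 (by 2.33, SE 0.50, adjusted p = 0.0167) and Gbp6 (by 1.86, SE 0.51, adjusted p = 0.0429). Iigp1 and Gbp6 did not pass with limma voom (adjusted p = 0.124 and 0.105), and with the replicate block Tgtp1 alone of the 4 passed. Iigp1 had 1.18 to 2.28 CPM in Ccna2-KO libraries, against 2.88 to 71.7 CPM in controls. Without control replicate 2, the highest in all 4, 3 genes of the list fell and 5 rose. Without control replicate 4, 5 fell, and without any 1 of the Ccna2-KO libraries 0 to 2 fell. With the set term 0 fell and 1 rose.

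The 5 genes outside the 10 whose levels followed their mean most closely over the 8 libraries, among 9490 genes with a mean log2 CPM of at least 3, were H2-Q4, Ube2q1, Cdc14b, Tapbpl and Igtp, with Pearson r of 0.982, 0.980, 0.974, 0.968 and 0.967. These r are likeness over 8 libraries that share their genotype groups and are given without a test. H2-Q4, a class I chain, had 42.7 to 62.2 CPM in Ccna2-KO libraries, against 52.2 to 135.3 CPM in controls (-0.61 ± 0.28, adjusted p = 0.201). Igtp, an interferon-induced GTPase, had 14.9 to 23.2 CPM in Ccna2-KO libraries, against 12.6 to 78.2 CPM in controls (-0.85 ± 0.48, adjusted p = 0.299).

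All 13 T cell and intraepithelial lymphocyte markers tested fell (11 with limma voom, 10 with the set term, 5 with the replicate block and 10 to 13 with single libraries left out). The summed level of the 14 listed was 24.9, 13.7, 17.9 and 27.1 CPM in Ccna2-KO libraries, against 44.5, 196, 146 and 79.1 CPM in controls. The chemokine gene Ccl5 fell by 3.40 on the log2 scale (SE 0.42, adjusted p = 0.00160), and the granzyme genes Gzma and Gzmb fell by 3.32 and 3.04 (SE 0.63 and 0.61, adjusted p = 0.0104 and 0.0134), while neither granzyme gene passed with the replicate block (adjusted p up to 0.0655). Cd2, a T cell adhesion receptor, fell by 2.93 (SE 0.43, adjusted p = 0.00353). Of 10 markers of other leukocytes tested, 4 fell (1 without Ccna2-KO replicate 3, and 2 without Ccna2-KO replicate 2, control replicate 2 or control replicate 3) and the macrophage marker Cd68 rose (1.13 ± 0.28, adjusted p = 0.0313). The fall of Laptm5 was 2.20 on the log2 scale, that of Itgax 2.17, that of Coro1a 1.96 and that of Ptprc 2.63. With the replicate block 0 of the 4 passed and with the set term 2. Cd68 did not pass with the replicate block, with the set term or in 5 of 8 fits without 1 library (Ccna2-KO replicates 2 and 3, control replicates 2, 3 and 4; adjusted p up to 0.0889). The 13 markers in the table summed to 18.6 to 29.4 CPM in Ccna2-KO libraries and 29.1 to 95.5 CPM in controls. Ptprc, the leukocyte antigen CD45, had 2.19 to 5.45 CPM in Ccna2-KO libraries, against 7.07 to 38.7 CPM in controls, and no defining T cell marker was at 0 in all libraries of a group (Cd3e, named here after its values were seen, had 0.300 to 0.876 CPM in Ccna2-KO libraries and 2.02 to 6.90 CPM in controls). Control replicate 2 was the highest library for the T cell sum as for all 10 class I pathway genes. The 5 tested fibroblast and endothelial markers had a median of 0.82, with 0 higher and 1 lower (Pecam1, -0.94 ± 0.24, adjusted p = 0.0315), which did not pass with the replicate block (adjusted p = 0.105) or without any 1 of the Ccna2-KO libraries or control replicate 3 (adjusted p up to 0.0956). Their 8 listed genes summed to 10.3 to 30.5 CPM in Ccna2-KO libraries and 7.82 to 16.5 CPM in controls. Epithelial markers were abundant in every library, with 1781 to 2030 CPM of Epcam in Ccna2-KO libraries and 1776 to 1974 CPM in controls. The 10 genes summed to 41989 to 46730 CPM in Ccna2-KO libraries and 37907 to 41476 CPM in controls, and 0 passed in edgeR (1 higher and 1 lower at an unadjusted p under 0.05, 1 higher in DESeq2, 0 in limma voom).

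**Figure D4:**
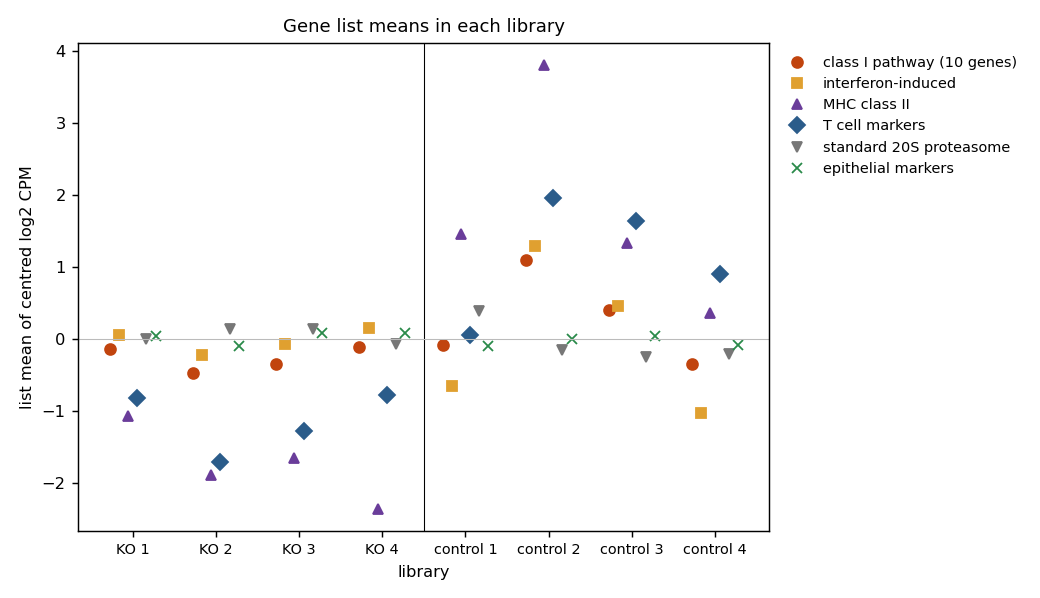
Mean of the centred log2 CPM of 6 gene lists in each library, where every gene is set to a mean of 0 across libraries, with Ccna2-KO libraries left of the line and controls right. The class I pathway, class II, interferon-induced and T cell means are all highest in control replicate 2, and epithelial markers stay between -0.10 and 0.09.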

How the data were processed

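The authors deposited estimated counts of RefSeq transcripts, one column per library, which per the submitters' processing notes came from kallisto and the mouse build GRCm38 (mm10). The sources used here give no kallisto version, filter or strandedness. The 687 of 107193 transcripts without a symbol (3.19% to 5.51% of counts) were left out. Counts were summed per symbol, rounded, and tested with edgeR 4.0.16 in R 4.3.3 (filterByExpr, TMM factors, quasi-likelihood F test with robust estimates, no covariate), adjusted over 15893 genes, with a threshold of 0.05. Standard errors are the log2 fold change divided by the root of F, and log2 CPM has a prior count of 2. Groups came from the sample titles. No pair of libraries matched within sampling noise. The fit was tested on simulated data. The alternatives were other scaling and filters, DESeq2 1.42.0, limma 3.58.1 voom, non-robust estimates, the replicate number as a block, the label number set, single transcripts and single libraries left out.

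The 10 genes, the lists of related and marker genes, and the rule for named genes were chosen with earlier results of these data known. The rule took the 10 genes, a fixed set of related genes whatever their values, up to 4 further passing genes per list with the largest change, and the 5 genes most like the mean, and 1 related gene is not reported here. Precision is limited by 4 libraries per group. Counting error is covered by the fit only.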

Additional observations from a re-analysis of the deposited data

How the results depend on the processing

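The count of all genes called was 1924, and 2949 with DESeq2, 987 with the replicate block and 2892 with the label number set term. Leaving out single libraries gave 972 (Ccna2-KO replicate 3 left out) to 4627 (control replicate 1 left out). Of the 10 class I pathway genes 2 passed, against 1 without the filter on low counts, 1 with limma voom, 1 with the set term and 0 with the replicate block, and 0 to 4 with single libraries left out. The cause of these shifts was not tested. Deviations of same-numbered libraries correlated at -0.35 to 0.15, so the numbers were not taken as pairs. With the replicate block, Psmb8 (adjusted p = 0.109) and Psmb10 (adjusted p = 0.122) did not pass. Scaling moved the median of all genes by under 0.1 on the log2 scale.

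Of 170 values of the 10 genes under these alternatives, 149 kept their direction and side of the threshold, 16 lost the call, 4 gained it and 1 changed sign (H2-D1). All 16 losses were in Psmb8 and Psmb10, the only genes with a call to lose. Psmb8 passed in 8 of its 17 alternatives and Psmb10 in 10 of 17. Among 38384 single transcripts, no transcript of the 10 genes passed. A minor transcript of Psmb10 (0.07, SE 0.39) had a positive log2 fold change, against the negative change of its gene. So did the largest transcript of Nlrc5 (0.17, SE 1.97), which held 24.7% of the Nlrc5 counts. The remaining sign changes were in genes that did not pass. With the set term, log2 fold changes were -0.08 for Psmb6, -0.01 for Psmb7, -0.09 for Pdia3, 0.06 for Ifngr2 and 0.02 for Jak1. With single libraries left out, values ran between 0.00 and 0.24 for H2-D1, between -0.58 and 0.24 for Ccna2, between -0.02 and 0.27 for Psmb6, between -0.03 and 0.15 for Ifngr1 and between -0.08 and 0.01 for Jak1. Nlrc5 had the lowest counts of the 10 genes, 99 to 1077 per library, and the widest spread among controls (SD of log2 CPM 1.65).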
